A study of Mus musculus with 6 samples.

Results

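The Hippo pathway is a kinase cascade that restrains tissue growth. Its core kinases phosphorylate the transcriptional coactivators YAP (gene Yap1) and TAZ (gene Wwtr1) and so keep them out of the nucleus. Unphosphorylated YAP and TAZ enter the nucleus, bind DNA through the TEAD factors and switch on genes of growth, matrix and mechanical response. In the kidney the pathway is known for its part in nephron development, in injury and fibrosis and in cyst growth.

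The 10 genes described here are both coactivators (Yap1 and Wwtr1), the TEAD factors Tead1, Tead2 and Tead3, and the standard YAP target genes Ctgf, Cyr61, Ankrd1, Amotl2 and Lats2. They were chosen by name, and every transcript that carried one of these symbols was kept. All 10 genes were found, with 25 of the 54721 transcripts and among 23276 gene symbols. Of the 25 transcripts, the RefSeq mRNAs are those with an NM identifier, and the others had been assembled from the reads by the authors.

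The transcripts came from total RNA of whole kidneys of 6 mice at post-natal day 22 (the study's text gives a slightly younger age). All 6 mice carried KspCre, a Cre recombinase driven by a promoter of renal tubule cells, a floxed Pkd1 allele and the hypomorphic Pkd1 allele RC, so recombined tubule cells kept the RC allele alone. The 3 kidneys of the single knockout group (SKO) had no further engineered allele in their labels. The 3 kidneys of the double knockout group (DKO) were also miR17~92 F/F, homozygous for a floxed microRNA cluster. Glomeruli, vessels and interstitium lie outside the reach of this Cre, and their RNA is part of each library. All levels below are the authors' mean over the 6 kidneys of both groups, in CPM or on the log2 scale. CPM are counts scaled to the total over all listed transcripts, in which a shared read appears to count more than once. No value of a single kidney was used, so the levels carry no error and the SKO and DKO groups are not compared here. In such bulk RNA, fewer cells of a type and less RNA per cell cannot be told apart.

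The tissue was checked against marker genes. The 4 proximal tubule markers lay between 108 and 1030 CPM, the 4 of more distal segments (thick limb and distal tubule) between 169 and 1022 CPM, and the 3 of the collecting duct between 41.0 and 77.7 CPM. Podocyte markers ranged from 13.0 to 130.6 CPM, endothelial markers from 27.0 to 60.2 CPM, fibroblast and pericyte markers from 44.8 to 128 CPM and the 2 macrophage markers from 4.49 to 25.3 CPM. All 4 markers of heart and skeletal muscle were under 1 CPM, as were both brain markers, whereas the liver markers Alb and Apob stood at 13.4 and 3.42 CPM. The targeted transcripts were present in the pooled mean, Pkd1 at 31.8 CPM and Mir17hg, the host of the deleted cluster, at 4.21 CPM, and a mean over both groups cannot check the deletion.

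Because the DKO kidneys carry the floxed miR17~92 cluster, the sequences of its microRNAs were set against the 3′ untranslated regions (3′ UTRs) of the 10 genes. A microRNA pairs with its targets mainly through its seed, bases 2 to 8 from the 5′ end. The mature sequences below are those of RefSeq (GRCm38.p6, chromosome 14, forward strand), printed 5′ to 3′ with the seed in capitals. They are shown because the cluster falls into 4 seed families, of which miR-17-5p and miR-20a-5p share the first and miR-19a-3p and miR-19b-3p the third.
miR-17-5p: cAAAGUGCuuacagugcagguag
miR-20a-5p: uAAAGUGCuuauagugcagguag
miR-18a-5p: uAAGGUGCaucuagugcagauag
miR-19a-3p: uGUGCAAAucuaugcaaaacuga
miR-19b-3p: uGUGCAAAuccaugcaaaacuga
miR-92a-3p: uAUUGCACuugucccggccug

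Matches to these seeds fell on both coactivators, on Tead1, on Ctgf and on Lats2. The share of all genes with a match to any of the 4 families was not computed. A match was counted as an 8mer (the complement of bases 2 to 8 followed by A), a 7mer-m8 (that complement alone) or a 7mer-A1 (the complement of bases 2 to 7 followed by A). The miR-17 seed was matched once in each of Yap1, Wwtr1 and Tead1, which is 3 of the 10 genes, against 16.9% of all genes. Of the 10 genes, 4 held a match to the miR-17 or the miR-19 seed, against 26.5% of all 18815 genes with a 3′ UTR. The 10 genes had longer 3′ UTRs, with a median of 1347 bases against 788 over all genes. Per length the miR-17 seed had 0.140 matches per kb in the 10 genes and 0.165 per kb over all genes. For the miR-19 seed these were 0.0931 and 0.141 per kb, and for the miR-18 seed 0.0931 and 0.100 per kb. For the miR-92 seed they were 0.140 matches per kb in the 10 genes and 0.102 over all genes. A match to miR-18 was held by 2 of the 10 genes and by 11.4% of all genes, and a match to miR-92 likewise by 2 of the 10 and by 11.4%. Without the 7mer-A1 form each of the 4 families stood at 0.0931 matches per kb in the 10 genes. Over all genes these rates were 0.0996 for miR-17, 0.0608 for miR-18, 0.0885 for miR-19 and 0.0506 per kb for miR-92. All rates in the 10 genes rest on 2 or 3 matches per family, and no difference between them and the rates over all genes was tested. Tead2, Tead3, Cyr61, Ankrd1 and Amotl2 held no match to any of the 4 families in the annotated 3′ UTR.

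The matches are shown with 8 bases on either side, on the strand of the transcript and with the match in capitals. Those to miR-17 lie at positions 321 to 327 after the stop codon of Yap1 (a 7mer-A1), 1731 to 1738 of Wwtr1 (an 8mer) and 1309 to 1316 of Tead1 (an 8mer). In GRCm38, the assembly that mm10 names, they are at chr9:7934170-7934176 (reverse strand), chr3:57457188-57457195 (reverse strand) and chr7:112899969-112899976 (forward strand).
Yap1, miR-17: ttcaccatCACTTTAactgaaca
Wwtr1, miR-17: gtcagggtGCACTTTActgggaag
Tead1, miR-17: cctcagtgGCACTTTAcacatata

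Ctgf, known from tumour studies as a target of miR-18 and miR-19, held a 7mer-m8 match to each, and these overlap by 4 bases close to the end of its 3′ UTR of 1067 bases. The miR-19 match is at positions 1022 to 1028 (chr10:24598633-24598639, forward strand) and the miR-18 match at positions 1025 to 1031 (chr10:24598636-24598642). Lats2 held an 8mer match to miR-92 at positions 349 to 356 (chr14:57690932-57690939, reverse strand), the longest form of match counted here.
Ctgf, miR-19: gttacatgTTTGCACctttctag
Ctgf, miR-18: acatgtttGCACCTTtctagttg
Lats2, miR-92: agacgtctGTGCAATAagagagga

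Tead1 had the longest 3′ UTR of the 10 genes, 8147 bases in NM_001166584, and with it 4 matches, 1 to miR-17, 1 to miR-19 and 2 to miR-92. Its isoform NM_009346, annotated with a 3′ UTR of 1330 bases, kept the miR-17 match and 1 miR-92 match and held none to miR-19. Both transcripts stood at nearly the same level, 68.1 and 68.0 CPM. Which 3′ UTR prevails in these kidneys cannot be told from these levels. Wwtr1 also held a 7mer-m8 match to miR-18, at positions 2952 to 2958. A match describes letters only, and whether any of these sites is used in these kidneys was not tested.

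**Figure D1:**
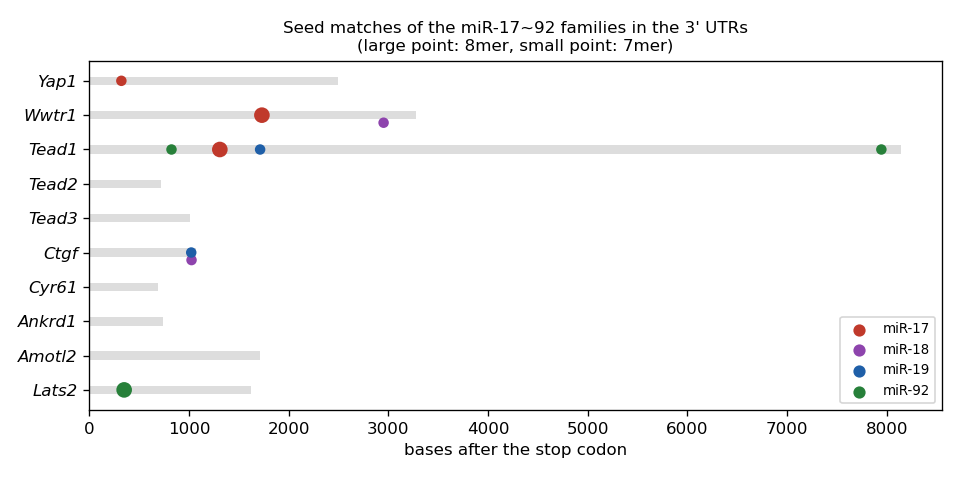
Positions of seed matches to the 4 seed families of the miR-17~92 cluster in the 3′ UTRs of the 10 genes, in bases after the stop codon. Grey bars give the length of each 3′ UTR, large points are 8mers and small points 7mers, and 5 of the genes carry no point.

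Both coactivators were present in the kidney RNA at levels above the median gene. Yap1 (chr9:7931999-8004596, reverse strand, 9 exons in NM_001171147) had a mean of 42.8 CPM, higher than 91.3% of all gene symbols by CPM and than 86.3% of genes by CPM per kb. Its other transcript NM_009534, which has 8 exons, stood at 42.7 CPM. Wwtr1 (chr3:57455649-57575828, reverse strand, 7 exons in NM_133784) had a mean of 62.6 CPM, higher than 94.9% by CPM and 89.5% by CPM per kb. Its transcript NM_001168281 stood at 62.5 CPM and its assembled transcript at 57.7 CPM.

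Divided by transcript length, which levels of different genes need before they are compared, Wwtr1 stood at 13.3 CPM per kb and Yap1 at 10.3 CPM per kb. The ratio of these levels was 1.30, and without the spread between kidneys it cannot be said whether they differ. The median over the 12476 genes of at least 1 CPM with a matched length was 4.06 CPM per kb, below both coactivators.

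The DNA-binding partners were listed at CPM values in the order Tead1, Tead3 and Tead2. Tead1 (chr7:112679320-112906807, forward strand) was listed 6 times. The 3 RefSeq transcripts and 2 assembled ones lay between 68.0 and 68.1 CPM, and the remaining assembled transcript was at 0.274 CPM. Tead3 (chr17:28331714-28350817, reverse strand, 13 exons in NM_011566) was listed 5 times, and all 5 transcripts stood at 10.2 CPM. Tead2 (chr7:45215753-45233644, forward strand, 12 exons) had 1 transcript, at 5.26 CPM. This was the lowest CPM of the 10 genes, higher than 58.2% of all gene symbols. Per kb of the RefSeq transcript with the highest level, Tead1 stood at 6.83, Tead3 at 3.95 and Tead2 at 2.46 CPM per kb, and the share of Tead1 in their sum was 51.6%.

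That share and the order rest on the lengths used. Divided by the median length of all annotated coding transcripts of each gene, Tead2 stood at 8.89 and Tead3 at 4.06 CPM per kb. The order of the lower pair thus turned with this length. For Tead2 that median is 592 bases, shorter than the coding sequence of its RefSeq transcript, 1335 bases, so it reflects annotated fragments. The 3 RefSeq transcripts of Tead1 had nearly the same CPM although their annotated lengths are 9964, 9480 and 3047 bases, so the level per kb was 6.83, 7.18 or 22.3 depending on the transcript. With the shortest of these, Tead1 would stand above Wwtr1 and below Ctgf. Tead4, the remaining TEAD gene and no member of this group, stood at 1.98 CPM and 0.556 CPM per kb.

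**Figure D2:**
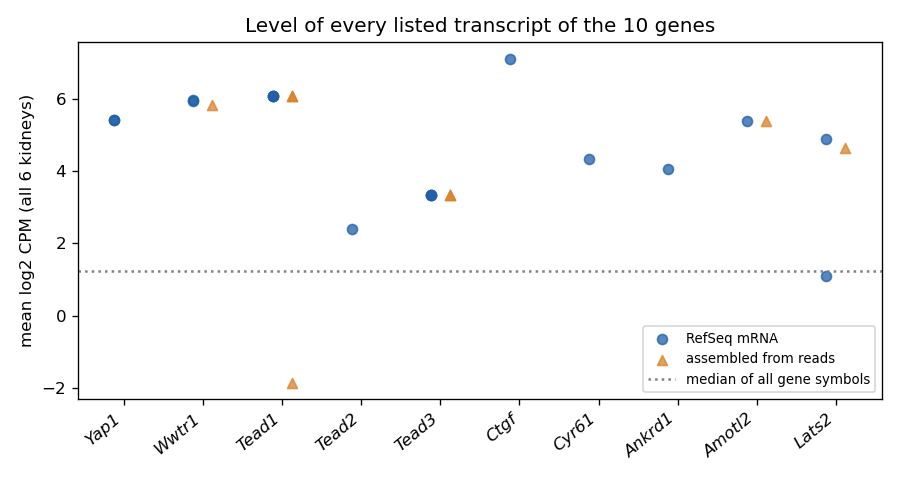
Mean log2 CPM over the 6 kidneys of each of the 25 transcripts of the 10 genes, with RefSeq mRNAs as circles and transcripts assembled from the reads as triangles. Transcripts of a gene lie close together except in Tead1, with 1 assembled transcript at -1.87, and in Lats2, with a RefSeq transcript at 1.10.

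Ctgf had the highest level of the 10 genes by CPM and by CPM per kb, and its distance to the next gene depended on the lengths used. Ctgf (Ccn2 in newer annotations, chr10:24595442-24598678, forward strand, 5 exons) encodes the secreted connective tissue growth factor of the CCN family, which is known for its part in fibrosis. Its mean of 139.9 CPM was exceeded by 337 of 23276 gene symbols, and its level of 58.3 CPM per kb was 4.38 times that of Wwtr1, which follows it in the order of the 10 genes. With the shortest RefSeq transcript of Tead1 that gene came next, at 22.3 CPM per kb. With the median length of all annotated coding transcripts Ctgf stayed at 58.3, Tead1 stood at 54.5 and Amotl2 at 53.9 CPM per kb. These medians, 1248 bases for Tead1 and 781 for Amotl2, include fragments. They are shorter than the coding sequences of NM_001166584 (1308 bases) and NM_019764 (2316 bases). Cyr61 (Ccn1, chr3:145646976-145649981, reverse strand, 5 exons), a secreted CCN protein that binds integrins, stood at 20.4 CPM and 10.1 CPM per kb. The level per kb of Ctgf was 5.78 times that of Cyr61.

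Ankrd1 (chr19:36111965-36120099, reverse strand, 9 exons) encodes an ankyrin repeat protein best known from heart muscle and is also induced in stressed epithelia. Its mean was 16.6 CPM, or 8.23 CPM per kb. The heart muscle genes Myh6 and Tnnt2 were at 0.171 and 0.276 CPM in the same libraries.

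The remaining targets encode restraints on the pathway that they report. Amotl2 (chr9:102717668-102733418, forward strand, 10 exons), a junctional scaffold that binds and holds back YAP, stood at 42.1 CPM in both its transcripts and at 9.72 CPM per kb. Lats2 (chr14:57689662-57746123, reverse strand, 8 exons in NM_015771), a kinase that phosphorylates YAP and TAZ, stood at 29.6 CPM and 5.70 CPM per kb. The related kinase Lats1, which is no member, stood at 37.9 CPM and 5.25 CPM per kb.

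The values listed for the transcripts of Lats2 were the most unequal among the RefSeq mRNAs of the 10 genes. NM_015771 was at 29.6 CPM, the assembled transcript at 24.9 CPM and NM_153382 at 2.14 CPM, so that the first was 13.8 times the last. NM_153382 has 2 exons and 786 bases, of which 423 also lie in NM_015771. Per kb the values of NM_015771 and NM_153382 were 5.70 and 2.73, a smaller gap. Reads in shared bases appear to be counted for each transcript, so the values do not measure the isoforms separately. Over 2992 genes with several RefSeq mRNAs, the median distance between the highest and the lowest was 0.0198 on the log2 scale, and 9.59% of them exceeded 1. For Lats2 this distance was 3.79.

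**Figure D3:**
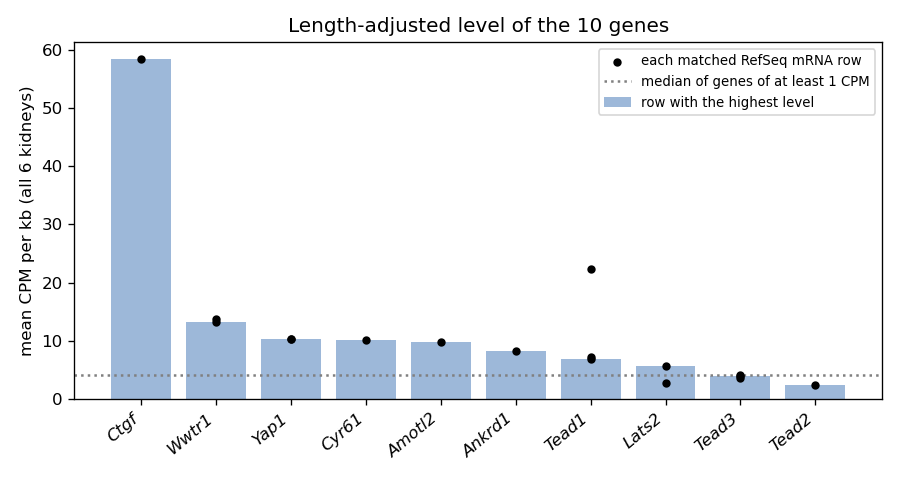
Mean level of the 10 genes in CPM per kb over the 6 kidneys, in descending order. Bars use the RefSeq transcript with the highest level, points show each matched RefSeq transcript, and the dotted line is the median of genes of at least 1 CPM, above which all bars but those of Tead3 and Tead2 reach.

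In order of CPM per kb the genes were Ctgf, Wwtr1, Yap1, Cyr61, Amotl2, Ankrd1, Tead1, Lats2, Tead3 and Tead2. All 10 passed 1 CPM, while 13001 of all 23276 gene symbols were at or above it. The lowest of the 10, Tead2, was at 5.26 CPM. The median of the 10 genes was 8.98 CPM per kb, against 4.06 CPM per kb over all genes of at least 1 CPM. Neighbours below Ctgf differed by ratios of 1.02 to 1.61. Yap1 and Cyr61 were the closest, with a ratio of 1.02, followed by Cyr61 and Amotl2, with 1.04. Since the spread between kidneys is unknown here, none of these neighbours can be said to differ.

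The reads were 51 bases long, and most of these genes share no stretch of that length with another annotated transcript. No stretch of 51 bases in Yap1, Wwtr1, Tead2, Ctgf, Cyr61, Ankrd1 or Amotl2 occurred in a transcript of another gene. Tead3 shared 9 of 2535 such stretches with Tead4, and Tead1 shared 28 of 9914 with other genes. In Lats2 56.5% were shared with Gm49361, a gene of the GENCODE annotation that runs from 57642077 to 57746103 over the same strand of chromosome 14 and is not a symbol of the authors' table. Reads there map to 1 place and could belong to either annotation.

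The rest of the pathway was examined through lists of genes. Of all 23276 gene symbols, 13001 were at or above 1 CPM. All 26 genes of the core kinase cascade and its upstream regulators, Lats2 and Amotl2 included, were so too, with a median of 5.65 CPM per kb. The highest were Wwc1 (KIBRA, an activator of the LATS kinases) at 19.7 CPM per kb and Nf2 (merlin, which brings LATS to the membrane) at 18.6 CPM per kb. The lowest were the giant cadherins Dchs1 and Fat4, at 0.746 and 0.868 CPM per kb. The 5 members among the 10 genes of the YAP and TAZ partner list were higher per kb than the other 5, but for Vgll4, a TEAD-binding repressor, at 4.28 CPM per kb, which was above Tead3 and Tead2. Vgll1 and Vgll2, tissue-specific cofactors of TEAD, were at 0.118 CPM and at the lowest value in the table, 0.0263 CPM.

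In a signature of 22 genes often used to report YAP activity, 5 of them members, 21 genes were at or above 1 CPM. Over all 23276 gene symbols, 13001 were. The median of the signature without the members was 7.01 CPM per kb. Ctgf was its highest gene, followed by Igfbp3, a binding protein of insulin-like growth factors, at 26.9 CPM per kb. The lowest were Foxf2 at 0.0259 and Fjx1 at 0.569 CPM per kb. In the CCN family, to which Ctgf and Cyr61 belong, the remaining 4 genes were lower, from 0.0378 CPM per kb for Wisp3 and 0.163 for Wisp2 to 2.48 for Wisp1.

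**Figure D4:**
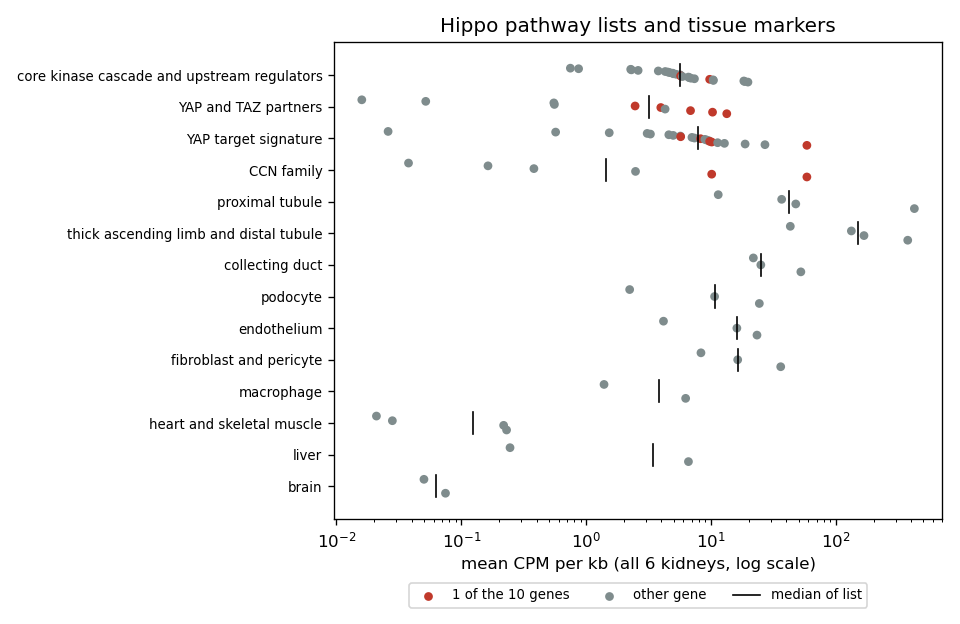
Mean CPM per kb over the 6 kidneys, on a log axis, for each gene of the Hippo pathway lists and of the tissue marker lists, with the list's median as a vertical line and the 10 genes in red. The 4 markers of heart and skeletal muscle lie under 1 CPM per kb, and Ctgf is the highest gene of its lists.

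The promoters were searched for the letters that TEAD factors bind, CATTCC on either strand. A RefSeq promoter window, from 250 bases before to 50 bases after the annotated start, was at hand for 8 of the 10 genes, Tead1 and Ctgf being the others. The letters occurred in 7 of these 8 genes, Tead2 being the exception, and in 16.6% of 27025 genes and 14.7% of 32851 promoters overall. Wwtr1, Lats2 and Tead3 have several annotated starts, which gives them more windows. The longer form ACATTCC, which contains the shorter one, occurred in Yap1, Tead3, Cyr61 and Amotl2, against 4.47% of all genes. The 5 target genes were named as YAP targets in earlier work, so the motif in their promoters is not independent of the choice of members.

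The matches nearest in form to the longer motif are shown with 8 bases on either side on the strand of the gene (GRCm38.p6), with the longer form in capitals, as ACATTCC or its reverse complement. They lie at chr9:8004731-8004737 for Yap1, chr17:28350709-28350715 for Tead3, chr3:145650083-145650089 for Cyr61 and chr9:102717738-102717744 for Amotl2.
Yap1: agtctgcaGGAATGTagcgacgc
Tead3: cattccgtACATTCCggccatcc
Cyr61: gccaaccaACATTCCtgagatgt
Amotl2: aaactctcACATTCCtggcatag

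The Ankrd1 window held the shorter core at -210 and -123 bases from the start on which the window is set. Distances are counted to the first base of the match on the gene's strand. Of the 8 genes, only Yap1 and Lats2 have a window set on the start of the transcript described above. The whole Ankrd1 window (chr19:36119795-36120094) lies inside the span of its transcript, which starts at 36120099 on the reverse strand. The Amotl2 match also lies past the start of its transcript, 102717668. So does the Tead3 match printed above, at chr17:28350709-28350715, since NM_011566 starts at 28350817 on the reverse strand. Wwtr1 held the shorter core once, at -136 or -170 depending on the annotated start, and Lats2 at 4 bases past its start. Tead3 held 4 matches over its 3 windows, of which only that at chr17:28350982-28350987 lies before the start of NM_011566. Cyr61 was the only gene of the 8 with TATAAA on the gene's strand, at -25, against 9.77% of all genes. These are matches of letters, and binding of TEAD to them was not measured here.

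**Figure D5:**
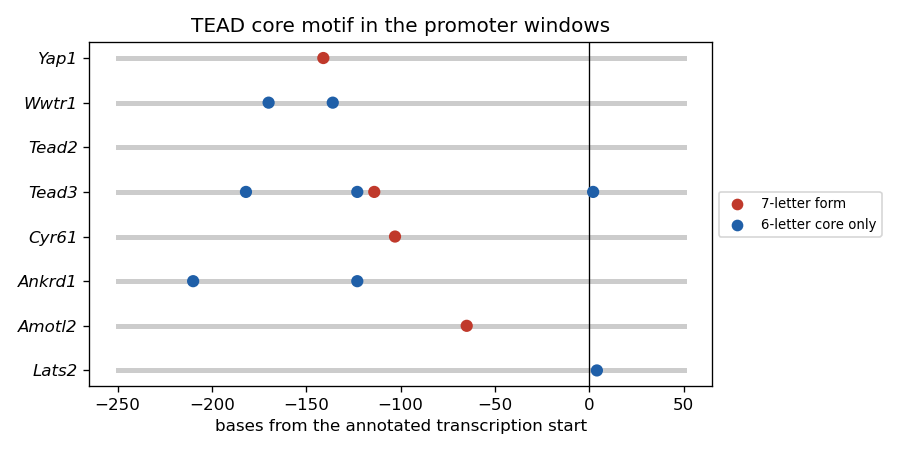
Positions of the TEAD core motif on either strand in the promoter windows of 8 of the 10 genes, in bases from the annotated transcription start. Red points are the 7-letter form and blue points the 6-letter core alone, grey lines are the windows, and Tead2 carries no point. Wwtr1 shows a match that is counted from each of its starts. Of the 8 genes, only Yap1 and Lats2 have a window set on the start of the transcript whose coordinates are given in the text.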

How the data were processed

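RNA of 6 mouse kidneys (3 SKO, 3 DKO) was read as 51 bp single-end reads from strand-specific total RNA libraries. After trimming, the authors aligned the reads to mm10 with TopHat2 2.0.12 and dropped alignments whose mapping quality was below 10. The submitters' processing notes also name Cufflinks, featureCounts of Subread 1.4.6 and edgeR 3.2.4. The authors deposited a mean log2 CPM for each of 54721 transcripts, which includes a prior count, so that 4617 transcripts share the lowest value, 0.0263 CPM. The deposited values sum to 1007270 CPM over all transcripts and to 370295 over the highest transcript of each gene symbol, so reads shared by overlapping transcripts appear to be counted for each. The other 4 deposited columns hold the authors' comparison of the groups (log2 fold change, likelihood ratio statistic, p-value and adjusted p-value) and were not used, and no test was made. The depth of each library is unknown.

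The transcript with the highest mean stood for its gene. Lengths came from GENCODE M21 (GRCm38) by RefSeq identifier, for 20099 of 20470 genes with a RefSeq mRNA and all 10 members. Levels per kb use the RefSeq mRNA with the highest mean. The named genes are the 10 members, the pair of highest and the pair of lowest genes per kb of each list (most tissue markers as ranges), Pkd1 and Mir17hg. Lats1, Tead4, Vgll4, Wisp1 and Gm49361 fall outside that rule and were named after their values were seen. The members and lists were chosen with earlier results of these data known. Adgre1 was found under its older symbol Emr1. Searches for seed matches and motifs were tested on simulated data. Python 3.11.15, numpy 2.4.6, pandas 2.3.3 and matplotlib 3.10.9 were used.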

Additional observations from a re-analysis of the deposited data

How the results depend on the processing

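With no replicate values or depths, a level counted as moved here when it changed by 1.5 times or more and a percentile when it changed by 10 points or more. Subtracting the lowest CPM of the table moved none of the 10 levels, on either scale, and ranking among genes with a RefSeq mRNA alone moved none of the 10 percentiles. The mean over RefSeq mRNAs moved 1 level in CPM, that of Lats2, to 15.9, and in CPM per kb took Tead1 from 6.83 to 12.1. Dividing by the median length of all annotated coding transcripts, many of which are fragments, gave 54.5 CPM per kb for Tead1, 8.89 for Tead2 (above Tead3, at 4.06), 53.9 for Amotl2 and 34.2 for Lats2. It left 1 of the 10 genes, Ctgf, at its place in the order, and the mean over RefSeq mRNAs left 5. Taking the RefSeq mRNA with the highest level per kb, an alternative chosen after seeing the data, moved Tead1 to 22.3 CPM per kb. Among genes of at least 1 CPM the percentile of Tead2 was 25.2, of Tead3 43.0, of Ankrd1 59.0, of Cyr61 65.3 and of Lats2 76.0. Ranked by CPM per kb, also added after seeing the data, Tead1 stood at 79.8 and Lats2 at 76.3. The longer TEAD motif was found in 4 of the 8 genes in place of 7, since it is a stricter search, and 8mer or 7mer-m8 matches to miR-17 or miR-19 in 3 of 10 genes in place of 4. Leaving out a kidney was not run, because the values are means over all 6. No paired analysis was possible because no value of a single kidney was used.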
